A study of Mus musculus with 12 samples.

Results

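The Hox genes of the 4 mouse clusters were described by cluster and by position in 12 mammary tumours. Members were the genes whose symbol in the deposited count table was Hox, a cluster letter from a to d and a number, and 38 of 39017 genes met this rule. They were 11 Hoxa, 10 Hoxb, 9 Hoxc and 8 Hoxd genes. The rule uses symbols and no measured value, but the Hox set was chosen with earlier results of these data known. In the mm10 build the Hoxa cluster spans chr6:52155590-52260880, the Hoxb cluster chr11:96194316-96368256, the Hoxc cluster chr15:102921103-103036852 and the Hoxd cluster chr2:74668310-74765142. All 38 are annotated as protein-coding, and Hoxd4 is not analysed here.

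The tumours were grown from NIC, an ErbB2-positive cell line of mouse breast cancer that lacks p66ShcA, the longest protein made from the adaptor gene Shc1. Hosts were FVB/N females of 8 to 12 weeks, and each received 250000 cells in Matrigel in a mammary fat pad. The 4 groups of 3 tumours were p66High aggressive, p66Low aggressive, p66High parental and p66Low parental. RNA from bulk tumour was depleted of ribosomal RNA, and the libraries held 17.4 to 76.1 M counts each. In both p66High groups the NIC cells carried constitutive overexpression of p66ShcA, and in both p66Low groups they did not. In both aggressive groups the cells had first passed through 2 rounds of selection in mammary fat pads and had been taken back into culture, and the parental groups came from the unselected counterparts. The 3 tumours of an aggressive group therefore share 1 selected population, and the labels do not say whether any population was a clone, which promoter drove p66ShcA, or whether tumours came from separate mice. Replicates 1 and 2 of p66High aggressive share a number in their titles, and so do replicates 1 and 2 of p66High parental.

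Hox genes encode homeodomain transcription factors that give cells along the body axis their positional identity. Within a cluster the genes lie in the order in which they are used, with the low, anterior numbers at one end and the high, posterior numbers at the other, and adult cells keep part of this pattern. Silent stretches of a cluster are held by Polycomb complexes, and active stretches by Trithorax and MLL complexes. In the mouse mammary gland, Hoxa9, Hoxb9 and Hoxd9 together are needed for growth of the gland around pregnancy.

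Levels were CPM, counts per M counts of the scaled library, and differences were tested with edgeR's quasi-likelihood test across all 19370 genes that passed a filter on low counts. A gene passed at a Benjamini-Hochberg adjusted p under 0.05. Shc1, the check of the labels, had 236 to 774 CPM in p66High aggressive, 60.9 to 69.9 CPM in p66Low aggressive, 223 to 271 CPM in p66High parental and 59.0 to 69.4 CPM in p66Low parental tumours. The 8 luminal epithelial markers, the check of the tissue, summed to 2191 to 2915 CPM, 2219 to 3343 CPM, 2212 to 2665 CPM and 2650 to 3156 CPM in the same order of groups. Replicates 1 and 2 of p66Low aggressive and replicate 3 of p66High parental stood apart, with 8 lymph node stroma markers at 173, 251 and 55.8 CPM in sum, against 0.0703 to 1.75 CPM in the other 9 tumours. Each count of Hox genes passing, and of all genes passing, was also taken without these 3 libraries. Leaving them out keeps 1 p66Low aggressive tumour, which is assumed to vary like the other groups. Counts for gene lists, cell markers and genes beside the clusters, and counts of positive and negative differences, were not taken again in this way.

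A total of 27 Hox genes passed the filter, 10 of them Hoxa, 7 Hoxb, 7 Hoxc and 3 Hoxd. The filter keeps a gene that is high in only 1 group, so these 27 do not stand for all 38. The 11 others were Hoxa13, Hoxb1, Hoxb8, Hoxb13, Hoxc11, Hoxc12, Hoxd1, Hoxd10, Hoxd11, Hoxd12 and Hoxd13, and the highest count of any of them was 10, or 0.236 CPM at most. Hoxb13, Hoxc12, Hoxd1 and Hoxd12 had a count of 0 in all 12 tumours, where 3 counts, the floor used here, were worth 0.0394 to 0.156 CPM per library. The heat map of Hox levels shows that most Hox transcripts came from the Hoxa cluster.

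**Figure D1:**
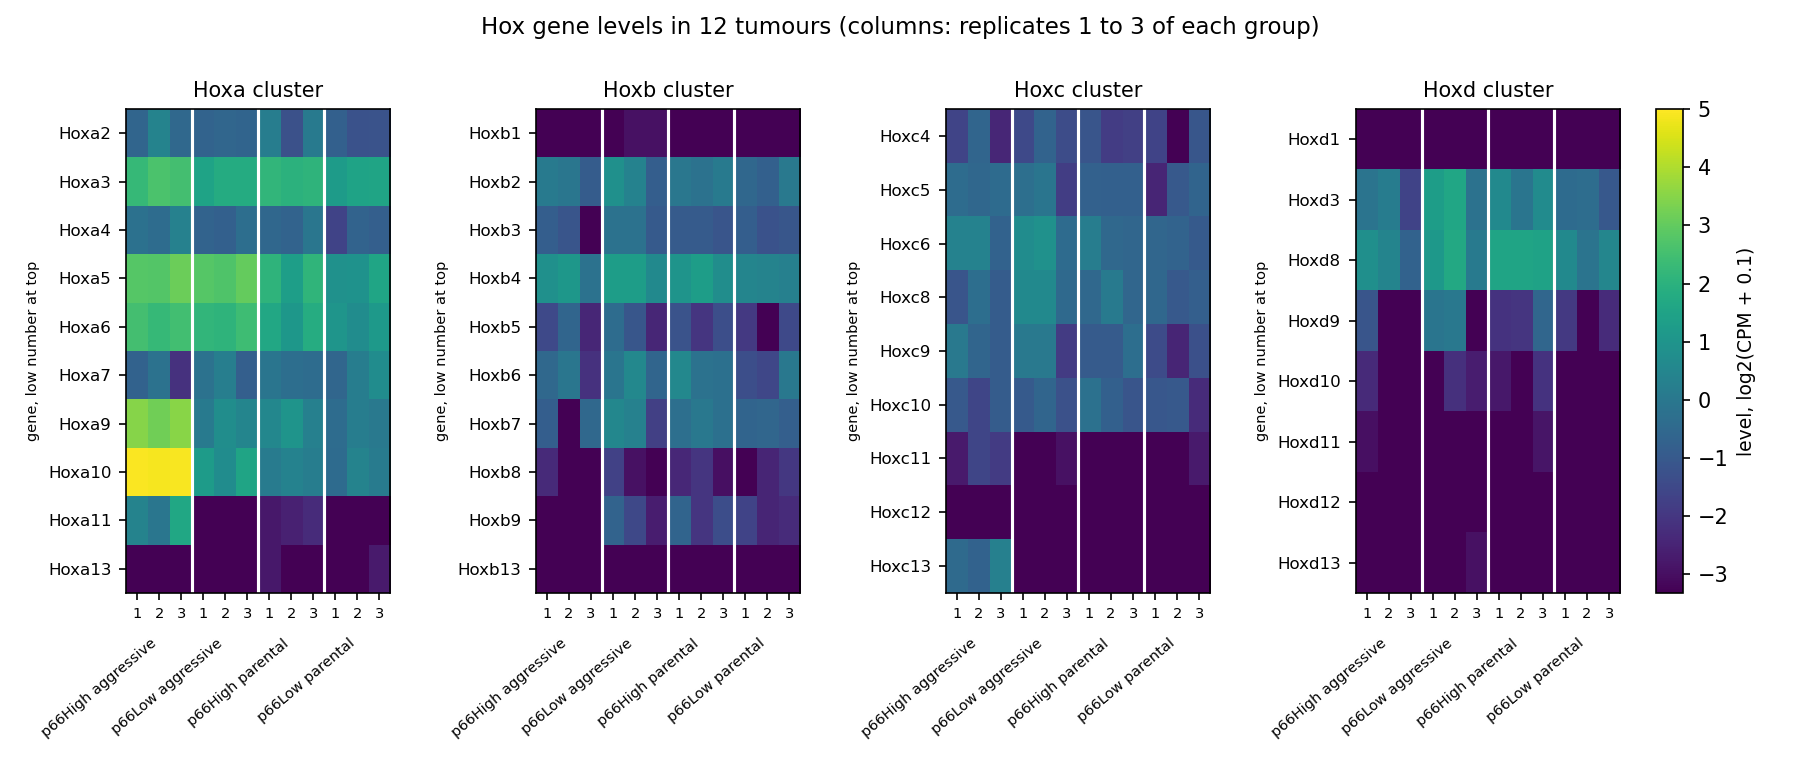
Level of Hox genes, as log2(CPM + 0.1), in 12 tumours, with 1 panel for each cluster, genes from low to high number down the page, and columns for replicates 1 to 3 of p66High aggressive, p66Low aggressive, p66High parental and p66Low parental tumours. Hoxa9, Hoxa10, Hoxa11 and Hoxc13 are brightest in the 3 p66High aggressive columns, and Hoxa5 and Hoxa6 are brighter in the 6 aggressive than in the 6 parental columns.

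Per kb of annotated exon, the order of mean levels differed between the groups at its top. In p66High aggressive tumours Hoxa10 led with 9.15 CPM per kb, followed by Hoxa6 with 6.01, Hoxa5 with 3.98, Hoxa9 with 1.87, Hoxa3 with 0.912 and Hoxa11 with 0.743 CPM per kb. In the other 3 groups Hoxa6 led and Hoxa5 came next. Their means were 5.25 and 3.80 CPM per kb in p66Low aggressive, 3.28 and 1.93 CPM per kb in p66High parental, and 2.12 and 1.13 CPM per kb in p66Low parental tumours. Outside the Hoxa cluster the highest group mean was Hoxd8 with 1.00 CPM per kb in p66High parental tumours.

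The summed level of the 11 Hoxa genes was 62.3, 60.3 and 67.4 CPM in p66High aggressive tumours, 20.6, 20.8 and 23.9 CPM in p66Low aggressive tumours, 17.5, 13.6 and 17.5 CPM in p66High parental tumours, against 8.96, 10.4 and 12.8 CPM in p66Low parental tumours. The groups followed each other in this order without overlap. Hoxa9, Hoxa10 and Hoxa11 made up 47.9 to 49.5% of the summed Hoxa level per kb in p66High aggressive tumours, 6.77 to 8.01% in p66Low aggressive, 6.19 to 12.2% in p66High parental and 6.92 to 12.0% in p66Low parental tumours. The 8 other Hoxa genes summed to 19.6, 21.1 and 23.1 CPM in p66High aggressive tumours and to 17.3, 17.6 and 19.8 CPM in p66Low aggressive tumours. In a bulk tumour, fewer cells of a type and less RNA per cell cannot be told apart.

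Among the 27 tested Hox genes, 6 passed between p66High aggressive and p66High parental tumours (22.2%), 5 of them higher and 1 lower. Of all genes tested 5.94% passed there, 3.11% higher and 2.82% lower. Between p66High aggressive and p66Low aggressive tumours 6 passed (22.2%), 5 higher and 1 lower, against 21.0% of all genes (8.92% higher and 12.1% lower), a share near the background. Between p66Low aggressive and p66Low parental tumours 4 passed (14.8%), all higher, against 16.6% of all genes (9.60% higher), again near the background. Between p66High parental and p66Low parental tumours 1 passed (3.70%), higher, against 8.08% of all genes (3.98% higher). The interaction, which tests whether selection changed a gene differently in p66High and in p66Low tumours, passed for 4 (14.8%) against 12.4% of all genes. It could not be estimated for Hoxa11 and Hoxc13, which count among the 27 as not passing. These comparisons share groups, so their counts are not independent.

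With selection in p66High tumours the genes that rose were Hoxa5, Hoxa9, Hoxa10, Hoxa11 and Hoxc13. Hoxa11 and Hoxc13 passed the filter on low counts only through the p66High aggressive group, so the share of 22.2% is partly fixed by the filter and nothing is read from it. The count of 6 was 4 without the 3 libraries with lymph node markers, and 3 or 4 without any 1 of the 6 p66High tumours. It was 2, Hoxa9 and Hoxa10, when tumours with a shared title number were summed into 1. Without the 3 libraries with lymph node markers the other counts were 3 between p66High aggressive and p66Low aggressive tumours (Hoxa9, Hoxa10 and Hoxa11), 3 for selection in p66Low tumours (Hoxa5, Hoxa6 and Hoxa10), and 1 for the interaction (Hoxa10), while Hoxa3 between the parental groups had an adjusted p of 0.134. Without these libraries the Hox share was above that of all genes between the aggressive groups, for both selections and for the interaction. The nearness to the background given above therefore did not hold there. Nothing is read from these shares, since p66Low aggressive keeps 1 tumour and the interaction share is 1 gene. Hoxa11 counts in the share between the aggressive groups and, with Hoxc13, for selection in p66High tumours. The filter kept both only through p66High aggressive.

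Hoxa9, Hoxa10 and Hoxa11 are neighbours on the minus strand, within chr6:52223100-52245810. Hoxa10, a posterior gene known for its part in the female reproductive tract, had 30.5, 29.3 and 29.9 CPM in p66High aggressive tumours, 2.29, 1.55 and 2.78 CPM in p66Low aggressive tumours, 1.01, 1.20 and 1.05 CPM in p66High parental tumours, against 0.648, 1.22 and 1.01 CPM in p66Low parental tumours. The 3 p66High aggressive tumours were alike and far above the other 9. Hoxa10 was 27.6-fold higher in p66High aggressive than in p66High parental tumours (log2 difference 4.79, SE 0.26, edgeR adjusted p = 1.55e-05). It was 13.6-fold higher in p66High aggressive than in p66Low aggressive tumours (log2 difference 3.76, SE 0.25, edgeR adjusted p = 1.54e-05). It was also 2.32-fold higher in p66Low aggressive than in p66Low parental tumours (log2 difference 1.21, SE 0.25, edgeR adjusted p = 0.00872), and these 2 groups did not overlap. With the p66Low tumours alone, this smaller difference had an adjusted p of 0.0666. The change with selection was larger in p66High than in p66Low tumours, by 3.57 on the log2 scale (SE 0.35, edgeR adjusted p = 0.000761).

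Hoxa9, a posterior gene best known in human acute leukaemia, had 11, 8.99 and 11.4 CPM in p66High aggressive tumours, 0.989, 1.58 and 1.28 CPM in p66Low aggressive tumours, 1.35, 1.86 and 1.13 CPM in p66High parental tumours, against 0.675, 1.05 and 0.936 CPM in p66Low parental tumours. The 3 p66High aggressive tumours stood above the other 9, whose groups lay close together. Hoxa9 was 7.28-fold higher in p66High aggressive than in p66High parental tumours (log2 difference 2.86, SE 0.27, edgeR adjusted p = 0.000304) and 8.00-fold higher than in p66Low aggressive tumours (log2 difference 3.00, SE 0.27, adjusted p = 9.66e-05). Selection in p66Low tumours gave 0.56 on the log2 scale (SE 0.27, edgeR adjusted p = 0.183), which did not pass. The interaction was 2.3 (SE 0.37, edgeR adjusted p = 0.00519), and its adjusted p was 0.0523 without the 3 libraries with lymph node markers.

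Hoxa11, a posterior gene of limb and uterus development, had counts of 48, 22 and 70 in p66High aggressive tumours, 0 in all 3 p66Low aggressive tumours, 2, 2 and 8 in p66High parental tumours and 0 in all 3 p66Low parental tumours. These were levels of 1.22, 0.864 and 3.02 CPM in p66High aggressive and of 0.0451, 0.0703 and 0.105 CPM in p66High parental tumours, which did not overlap. It was 21.1-fold higher in p66High aggressive than in p66High parental tumours (log2 difference 4.40, SE 0.68, edgeR adjusted p = 0.012). That adjusted p was 0.0543 without replicate 1 and 0.0664 without replicate 2 of p66High parental. Against p66Low aggressive tumours Hoxa11 was at least 81.6-fold higher, with the floor of 3 counts taken over that group (edgeR adjusted p = 0.00142). Its interaction could not be estimated, because both p66Low groups were at 0. Of its exon bases 35.0% overlap the antisense gene Hoxa11os, and the strand setting of the counting is not given, so part of its counts is uncertain. Hoxa13, the last gene of the cluster, is known for its part in digits and the genital tubercle and had a count of 2 at most.

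**Figure D2:**
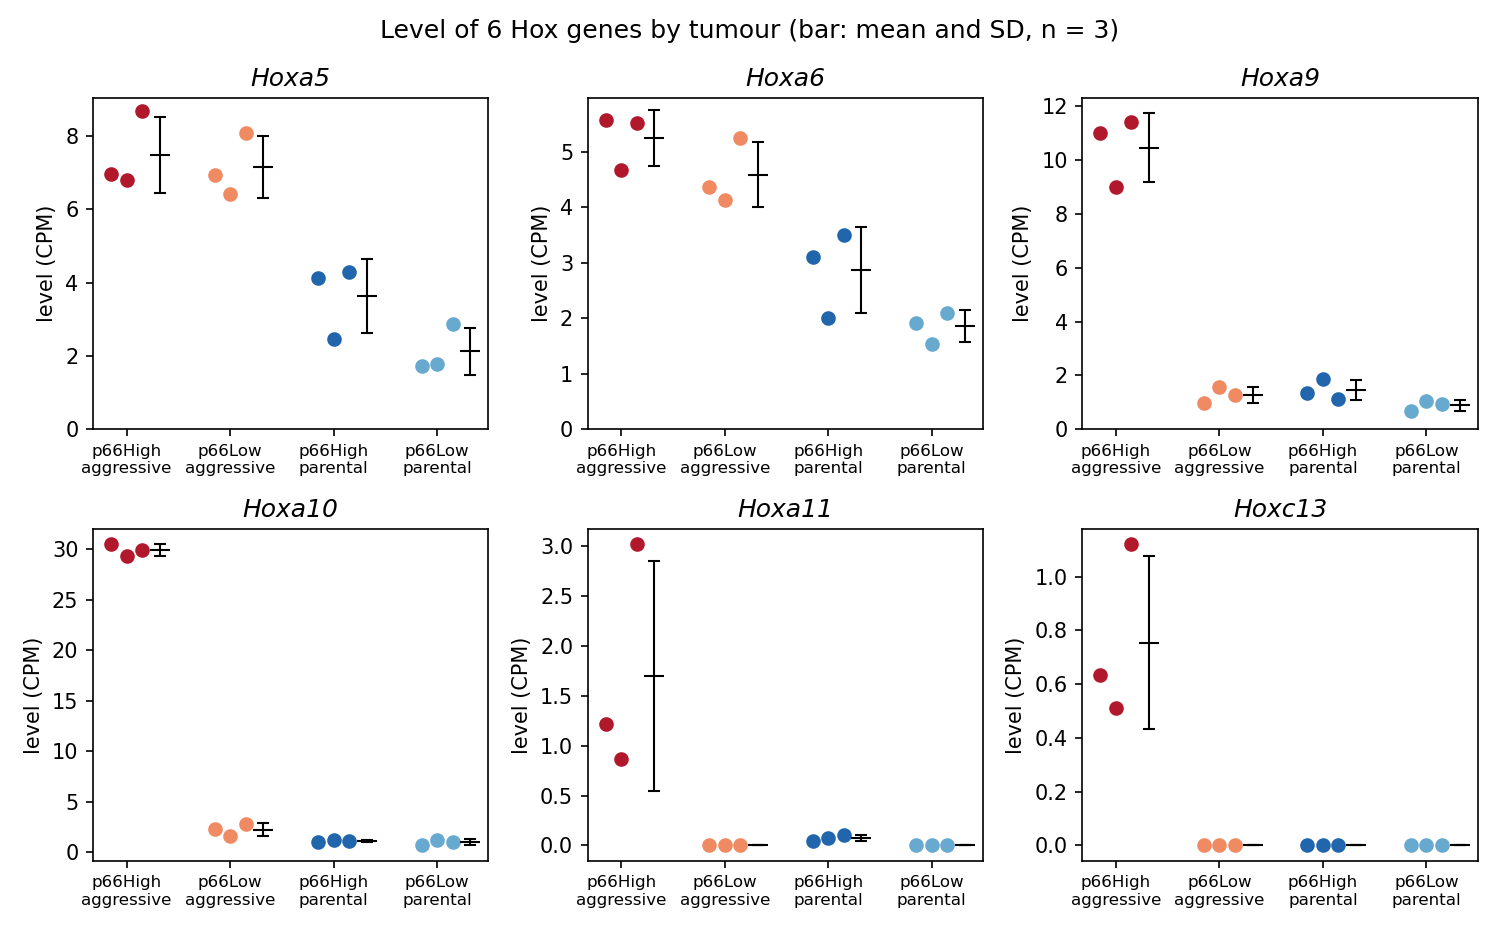
Level in CPM of Hoxa5, Hoxa6, Hoxa9, Hoxa10, Hoxa11 and Hoxc13 in each tumour of the 4 groups, with the mean and SD of 3 tumours beside the points. Hoxa10 lies between 29.3 and 30.5 CPM in p66High aggressive tumours and at 2.78 CPM or less in the other 9, while Hoxa5 and Hoxa6 lie higher in both aggressive groups than in their parental groups.

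The promoters of Hoxa9, Hoxa10 and Hoxa11 and of their neighbours Hoxa7 and Hoxa13 are shown, since these 3 had the largest differences of the tested Hoxa genes between p66High aggressive and p66High parental tumours. The sequences are RefSeq's for GRCm38.p6 (mm10), from 250 bases before to 50 after each listed start, on the minus strand and 5′ to 3′, with CpG dinucleotides in capitals. Hoxa10 has 2 listed starts.
Hoxa7 promoter, chr6:52218524-52218823: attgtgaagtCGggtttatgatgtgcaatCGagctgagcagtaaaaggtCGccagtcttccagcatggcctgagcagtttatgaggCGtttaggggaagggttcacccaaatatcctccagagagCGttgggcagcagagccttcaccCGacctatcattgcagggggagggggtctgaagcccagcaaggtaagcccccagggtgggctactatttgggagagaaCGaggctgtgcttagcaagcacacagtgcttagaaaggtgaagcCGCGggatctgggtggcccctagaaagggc
Hoxa9 promoter, chr6:52227321-52227620: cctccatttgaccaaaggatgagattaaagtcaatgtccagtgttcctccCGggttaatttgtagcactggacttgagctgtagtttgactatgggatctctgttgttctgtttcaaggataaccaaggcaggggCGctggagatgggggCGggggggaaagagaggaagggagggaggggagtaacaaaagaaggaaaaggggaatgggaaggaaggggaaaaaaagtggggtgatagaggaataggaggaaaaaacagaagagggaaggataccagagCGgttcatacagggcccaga
Hoxa10 promoter, downstream start, chr6:52234890-52235189: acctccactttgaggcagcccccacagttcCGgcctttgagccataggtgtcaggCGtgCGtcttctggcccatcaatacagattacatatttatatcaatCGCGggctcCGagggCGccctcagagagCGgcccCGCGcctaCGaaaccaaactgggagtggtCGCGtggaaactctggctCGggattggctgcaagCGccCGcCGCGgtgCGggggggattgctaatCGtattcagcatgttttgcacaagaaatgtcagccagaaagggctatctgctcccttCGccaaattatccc
Hoxa10 promoter, upstream start, chr6:52240805-52241104: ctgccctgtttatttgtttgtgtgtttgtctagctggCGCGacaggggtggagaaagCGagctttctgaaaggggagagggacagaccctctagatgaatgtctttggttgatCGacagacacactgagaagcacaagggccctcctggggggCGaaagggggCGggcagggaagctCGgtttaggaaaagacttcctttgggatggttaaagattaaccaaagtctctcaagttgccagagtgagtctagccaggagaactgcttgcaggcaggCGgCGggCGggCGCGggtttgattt
Hoxa11 promoter, chr6:52245761-52246060: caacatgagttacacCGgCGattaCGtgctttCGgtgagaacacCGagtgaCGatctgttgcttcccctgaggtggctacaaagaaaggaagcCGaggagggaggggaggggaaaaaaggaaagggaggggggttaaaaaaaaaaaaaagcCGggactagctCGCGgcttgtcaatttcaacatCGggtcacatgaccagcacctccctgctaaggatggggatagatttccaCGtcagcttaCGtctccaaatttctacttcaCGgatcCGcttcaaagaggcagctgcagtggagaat
Hoxa13 promoter, chr6:52260831-52261130: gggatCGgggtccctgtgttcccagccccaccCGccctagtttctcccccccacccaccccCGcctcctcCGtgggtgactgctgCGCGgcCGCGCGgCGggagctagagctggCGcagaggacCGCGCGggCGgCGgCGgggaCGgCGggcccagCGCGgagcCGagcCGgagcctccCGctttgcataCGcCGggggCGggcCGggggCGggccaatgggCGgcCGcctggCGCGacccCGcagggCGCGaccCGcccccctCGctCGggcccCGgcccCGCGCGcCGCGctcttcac

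These windows held 9 CpG at Hoxa7, 4 at Hoxa9, 21 at the downstream and 12 at the upstream start of Hoxa10, 15 at Hoxa11 and 45 at Hoxa13. The median was 14.5 over the 24 Hox windows in the table and 7 over all 32851 windows, and 21 of the 38 members matched. Hoxa13, at 2 counts at most, had the highest CpG count of the Hox windows and Hoxa9 the lowest. The CCAAT box, read as CCAAT on either strand, was in 15 of 24 Hox windows (62.5%) and in 37.4% of all windows. It was in the window of the downstream Hoxa10 start and of Hoxa13. The TATA box, read as TATAAA on either strand, was in 4 of 24 Hox windows (16.7%), that of the downstream Hoxa10 start among them, and in 13.6% of all windows. The posterior Hox letters TTTACGA, the Hox and Pbx letters TGATTNAT, the Meis letters TGACAG and the Cdx letters TTTATGG were in none of the 6 windows above, and in 0.597%, 3.22%, 19.2% and 2.75% of all windows, each on either strand. A window counted once for a motif, and no motif is contained in another. A match or its lack describes these letters only.

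Hoxc13, the last gene of the Hoxc cluster at chr15:102921103-102928814 and known for its part in hair and nails, had counts of 25, 13 and 26 in p66High aggressive tumours and 0 in the other 9 tumours. These counts were 0.634, 0.510 and 1.12 CPM. It was detected in all 3 p66High aggressive tumours and in no other. The level was at least 36.1-fold higher than in p66High parental tumours (edgeR adjusted p = 0.0155) and at least 37.3-fold higher than in p66Low aggressive tumours (edgeR adjusted p = 0.00555), with the floor of 3 counts over the group at 0. Against p66High parental tumours the adjusted p was 0.0531 without replicate 1 and 0.0584 without replicate 3 of p66High aggressive, and 0.0502 without replicate 3 of p66High parental. Against p66Low aggressive tumours it was 0.0502 without the 3 libraries with lymph node markers. Next to it, Hoxc12 was at 0 throughout and Hoxc11 had 6 counts at most. Hoxc11 was at 0.0507, 0.236 and 0.172 CPM in p66High aggressive tumours and at 0.052 CPM or less elsewhere, and it was too low to be tested.

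Hoxb9, a posterior Hoxb gene, was the 1 member that passed as lower in p66High aggressive tumours. It had a count of 0 in all 3 p66High aggressive tumours, against 0.521, 0.248 and 0.0571 CPM in p66Low aggressive tumours and 0.541, 0.141 and 0.289 CPM in p66High parental tumours. In p66Low parental tumours it had 0.216, 0.0811 and 0.104 CPM, so it was detected in all of these 9 tumours at a low level. It was at least 9.85-fold lower than in p66High parental tumours (edgeR adjusted p = 0.0397) and at least 5.72-fold lower than in p66Low aggressive tumours (edgeR adjusted p = 0.0264). Against p66High parental tumours the adjusted p was 0.0668 to 0.102 without any 1 of the 6 tumours. Without the 3 libraries with lymph node markers it was 0.0679. Against p66Low aggressive tumours it was 0.307 without these libraries, 0.0686, 0.0561 and 0.0574 without replicates 1, 2 and 3 of p66High aggressive and 0.0638 without replicate 2 of p66Low aggressive. Hoxb9 and Hoxc13 were named after their values were seen, since their group means stay under 1 CPM.

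Hoxa5 and Hoxa6, central genes of the cluster, were higher after selection in p66Low tumours. Hoxa5, known for its part in lung and mammary development and as a regulator of p53 in human breast cancer cells, had 6.95, 6.79 and 8.67 CPM in p66High aggressive tumours, 6.93, 6.42 and 8.07 CPM in p66Low aggressive tumours, 4.13, 2.46 and 4.30 CPM in p66High parental tumours, against 1.73, 1.78 and 2.86 CPM in p66Low parental tumours. All 6 aggressive tumours were above all 6 parental tumours, and the 2 aggressive groups overlapped. It was 3.35-fold higher in p66Low aggressive than in p66Low parental tumours (log2 difference 1.74, SE 0.26, edgeR adjusted p = 0.002). In p66High tumours it was 2.04-fold higher with selection (log2 difference 1.03, SE 0.26, edgeR adjusted p = 0.0382). The adjusted p of the p66High difference was 0.0638 to 0.128 without any 1 of the 6 tumours, and 0.0866 without the 3 libraries with lymph node markers. Its interaction, at -0.71 (SE 0.36, edgeR adjusted p = 0.224), did not pass.

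Hoxa6, which lies beside Hoxa5, had 5.56, 4.67 and 5.52 CPM in p66High aggressive tumours, 4.37, 4.13 and 5.25 CPM in p66Low aggressive tumours, 3.11, 2.0 and 3.49 CPM in p66High parental tumours, against 1.92, 1.54 and 2.10 CPM in p66Low parental tumours. Again all 6 aggressive tumours were above all 6 parental ones. It was 2.46-fold higher in p66Low aggressive than in p66Low parental tumours (log2 difference 1.30, SE 0.24, edgeR adjusted p = 0.00451). In p66High tumours the log2 difference was 0.86 (SE 0.23, edgeR adjusted p = 0.0502), just short of the threshold. It passed with DESeq2 (adjusted p = 0.00542), limma-voom (0.0466), DESeq2's size factors in edgeR (0.0488) and halved counts (0.0427). Under the other alternatives it did not pass. Those were no filter, scaling by total count, the p66High tumours alone and shared title numbers summed. The rest left out the lymph node libraries or each p66High tumour in turn. The p66Low differences of Hoxa5 and Hoxa6 passed under all 15 alternatives tried for each, 1 of which keeps only 1 p66Low aggressive tumour.

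In p66Low aggressive replicate 3, the tumour of its group with lymph node markers at only 1.23 CPM, Hoxa5 was at 8.07, Hoxa6 at 5.25 and Hoxa10 at 2.78 CPM. These levels were the highest of the group. Leaving out the 3 libraries keeps this tumour alone for p66Low aggressive. That fit therefore cannot check the differences of Hoxa5, Hoxa6 and Hoxa10 from p66Low parental tumours, and nothing is read from it. The part of lymph node cells in these differences was not tested.

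Hoxa3, an anterior gene known for its part in the pharyngeal arches, was higher in p66High than in p66Low tumours. It had 4.69, 6.2 and 5.56 CPM in p66High aggressive tumours, 2.71, 3.39 and 3.40 CPM in p66Low aggressive tumours, 4.37, 3.94 and 4.12 CPM in p66High parental tumours, against 2.29, 2.72 and 2.83 CPM in p66Low parental tumours. All 6 p66High tumours were above all 6 p66Low tumours. Hoxa3 was 1.72-fold higher in p66High aggressive than in p66Low aggressive tumours (log2 difference 0.78, SE 0.18, edgeR adjusted p = 0.0112) and 1.59-fold higher in p66High parental than in p66Low parental tumours (log2 difference 0.66, SE 0.18, adjusted p = 0.0486). Without the 3 libraries with lymph node markers these adjusted p were 0.213 and 0.134. The parental difference also missed the threshold without any 1 of the 6 parental tumours, at adjusted p 0.0634 to 0.159. Selection changed it by 0.40 in p66High tumours (SE 0.18, edgeR adjusted p = 0.216) and by 0.28 in p66Low tumours (SE 0.18, adjusted p = 0.341) on the log2 scale, neither of which passed. Of its exon bases 25.4% overlap antisense genes of the cluster, and these reads cannot be told apart from its own where strand was not used.

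Hoxa2, Hoxa4 and Hoxa7 lay at 0.129 to 1.56 CPM in all tumours and passed in no comparison. Hoxa2, a gene of the hindbrain and the second pharyngeal arch, and Hoxa4 had positive log2 differences of 0.50 and 0.52 with selection in p66Low tumours. Hoxa7, between Hoxa6 and Hoxa9, had 0.507, 0.785 and 0.129 CPM in p66High aggressive tumours and 0.834, 0.703 and 0.669 CPM in p66High parental tumours. Its log2 difference of -0.61 (SE 0.55) between them was negative while Hoxa6 and Hoxa9 on both sides had positive ones.

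**Figure D3:**
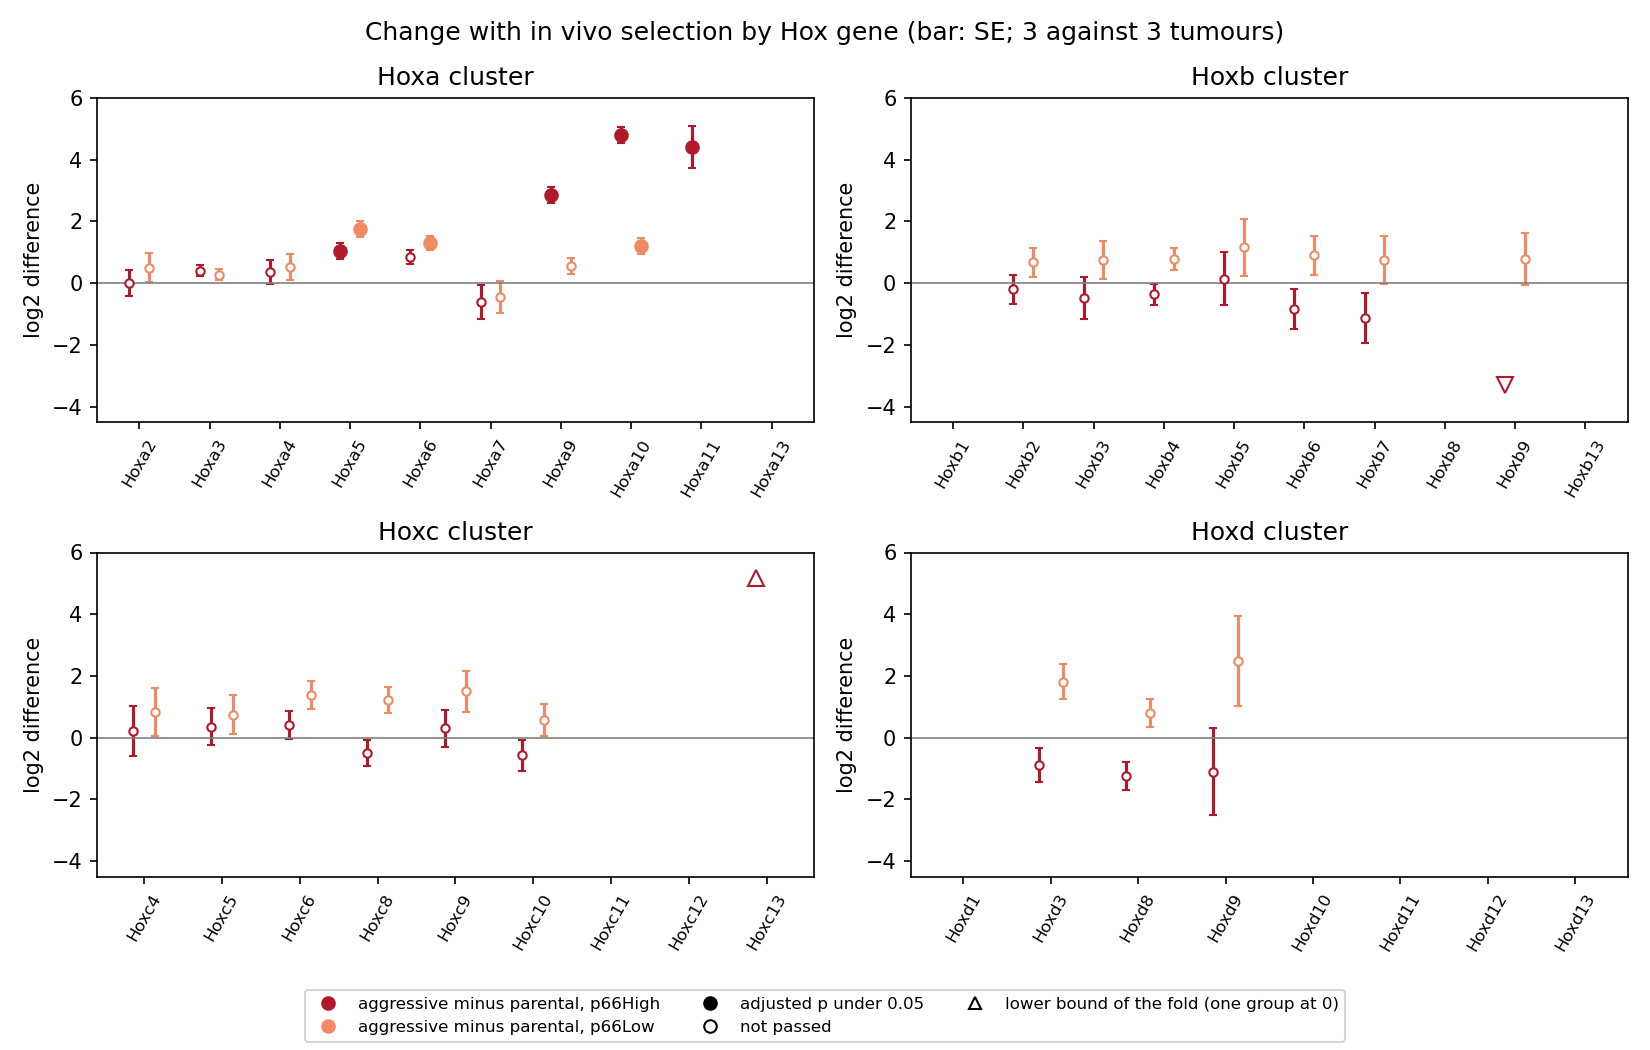
Log2 difference of aggressive minus parental tumours, with its SE, for tested Hox genes in order of their number, in p66High tumours (dark red) and in p66Low tumours (orange), with filled circles for adjusted p under 0.05 and triangles for lower bounds where 1 group was at 0. In p66High tumours Hoxa9, Hoxa10 and Hoxa11 reach 2.86, 4.79 and 4.40, and in the Hoxb and Hoxd clusters the p66Low points lie above 0 while 9 of the 10 p66High points lie below it.

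In the Hoxb and Hoxd clusters few differences passed. Hoxb levels summed to 4.54, 4.67 and 2.03 CPM in p66High aggressive tumours, 8.49, 7.60 and 3.22 CPM in p66Low aggressive tumours, 6.24, 5.66 and 5.01 CPM in p66High parental tumours, against 3.54, 3.00 and 4.31 CPM in p66Low parental tumours. Hoxd levels summed to 2.94, 2.28 and 0.733 CPM in p66High aggressive, 5.31, 7.12 and 1.83 CPM in p66Low aggressive, 4.42, 3.80 and 4.95 CPM in p66High parental, against 2.24, 1.5 and 1.79 CPM in p66Low parental tumours. In both clusters the lowest tumour of each aggressive group was replicate 3. The Hoxc sums were 4.47, 4.56 and 3.84 CPM in p66High aggressive, 5.36, 6.06 and 2.25 CPM in p66Low aggressive, 3.70, 3.13 and 2.87 CPM in p66High parental, against 2.11, 1.83 and 2.26 CPM in p66Low parental tumours. Here too replicate 3 was the lowest of each aggressive group.

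Across the 27 tested Hox genes, the median log2 difference of selection was 0.15 in p66High tumours and 0.79 in p66Low tumours, where that of all genes tested was 0.00 and -0.02. In p66Low tumours 24 of the 27 were positive and 1 negative, with 2 at 0 in both groups. In p66High tumours 14 were positive and 13 negative. By cluster, the medians were 0.63 for Hoxa, -0.48 for Hoxb, 0.30 for Hoxc and -1.10 for Hoxd in p66High tumours, and 0.54, 0.78, 0.83 and 1.82 in p66Low tumours. For p66High against p66Low the Hox median was -0.35 in aggressive tumours, where 10 were positive and 17 negative, and 0.70 in parental tumours, where 25 were positive and 1 negative. That of all genes was 0.02 and -0.01. By position, the medians of the anterior genes (numbers 1 to 3), the central genes (4 to 8) and the posterior genes (9 to 13) were -0.10, 0.15 and 1.58 for selection in p66High tumours, and 0.71, 0.83 and 0.68 in p66Low tumours. These medians rest on fitted values, and Hoxb9, Hoxc13 and Hoxa11 enter them with values that depend on the prior count where 1 group was at 0. With these genes at their bounds, from the floor of 3 counts over the group, every median in this paragraph stayed as given. That check keeps in Hoxa11 and Hoxc13, which passed the filter only through the p66High aggressive group. Medians for p66High aggressive tumours that hold them are partly fixed by the filter, and nothing is read from the posterior 1.58. Of the 8 posterior genes 5 were positive and 3 negative there.

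Hoxd3, an anterior gene, had 0.812, 1.02 and 0.216 CPM in p66High aggressive tumours, 2.40, 2.94 and 0.770 CPM in p66Low aggressive tumours, 1.44, 0.844 and 1.53 CPM in p66High parental tumours, against 0.648, 0.690 and 0.390 CPM in p66Low parental tumours. The p66Low aggressive tumours were above the p66Low parental ones, most clearly in replicates 1 and 2, and the p66High groups overlapped. Its interaction passed at -2.71 on the log2 scale (SE 0.80, edgeR adjusted p = 0.0484), with -0.89 for selection in p66High tumours and 1.82 in p66Low tumours, neither of which passed by itself, though DESeq2 called the p66Low difference (adjusted p = 0.0124). The interaction was -1.16 with an adjusted p of 0.553 without the 3 libraries with lymph node markers. It also missed the threshold without any 1 of 11 of the 12 tumours, with edgeR adjusted p of 0.0526 to 0.13. The exception was replicate 3 of p66Low aggressive. With limma-voom the interaction was -2.62 (adjusted p = 0.12), and with shared title numbers summed its edgeR adjusted p was 0.0841. Of its exon bases 62.3% overlap Hoxd4 and Gm28230 on the same strand, so its counts are uncertain.

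Hoxd8, a central gene next to it, had 1.65, 1.26 and 0.517 CPM in p66High aggressive tumours, 2.08, 3.16 and 0.970 CPM in p66Low aggressive tumours, 2.80, 2.81 and 2.66 CPM in p66High parental tumours, against 1.43, 0.811 and 1.30 CPM in p66Low parental tumours. The p66High parental tumours were alike and above both the p66High aggressive and the p66Low parental ones. With edgeR no comparison passed for Hoxd8, and its interaction was -2.04 (SE 0.64, adjusted p = 0.0594). DESeq2 called the interaction (adjusted p = 0.0161), and edgeR did without replicate 1 of p66High aggressive (0.0486) or replicate 3 of p66Low aggressive (0.0148). The parental difference passed with only these 6 tumours compared (edgeR adjusted p = 0.0325). Hoxb4, known for expanding blood stem cells, was the highest Hoxb gene per kb in every group, at 0.776 to 2.40 CPM over the 12 tumours.

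Fibroblast markers, like those of several other cell types, were lowest in the same aggressive replicates as the Hoxb, Hoxc and Hoxd levels. The genes of these 3 clusters together summed to 11.9, 11.5 and 6.60 CPM in p66High aggressive tumours, 19.2, 20.8 and 7.30 CPM in p66Low aggressive tumours, 14.4, 12.6 and 12.8 CPM in p66High parental tumours, against 7.88, 6.33 and 8.37 CPM in p66Low parental tumours. The 12 fibroblast markers summed to 1338 to 3504 CPM in p66High aggressive, 1893 to 6269 CPM in p66Low aggressive, 2730 to 3952 CPM in p66High parental and 2309 to 2967 CPM in p66Low parental tumours. Replicate 3 was the lowest of both aggressive groups for these markers as well. The 10 adipocyte markers summed to 45.5 to 195 CPM, 94.2 to 551 CPM, 225 to 544 CPM and 67.9 to 269 CPM in the same order of groups, and no marker of either list was at 0 in a whole group. At most 1 of the 12 fibroblast and 1 of the 10 adipocyte markers passed with edgeR in any of these comparisons. For selection in p66Low tumours all 12 fibroblast markers (median log2 difference 0.76) and all 10 adipocyte markers (1.5) had positive differences. In p66High tumours 11 of the 12 (median -0.45) and 9 of the 10 (-2.6) were negative. For the interaction all 12 (-1.22) and all 10 (-4.15) were negative. Replicate 3 was also the lowest of both aggressive groups for adipocyte, T cell, B cell, endothelial, macrophage and basal epithelial markers. In p66High and p66Low aggressive tumours it had 84.8 and 110 CPM of endothelial, 230 and 566 CPM of macrophage and 51.1 and 45.5 CPM of basal markers. Luminal markers were highest there, at 2915 and 3343 CPM, and the other lists did not have their lowest sums there in both groups. The part of any of these cells in the Hoxb, Hoxc and Hoxd values was not tested.

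**Figure D4:**
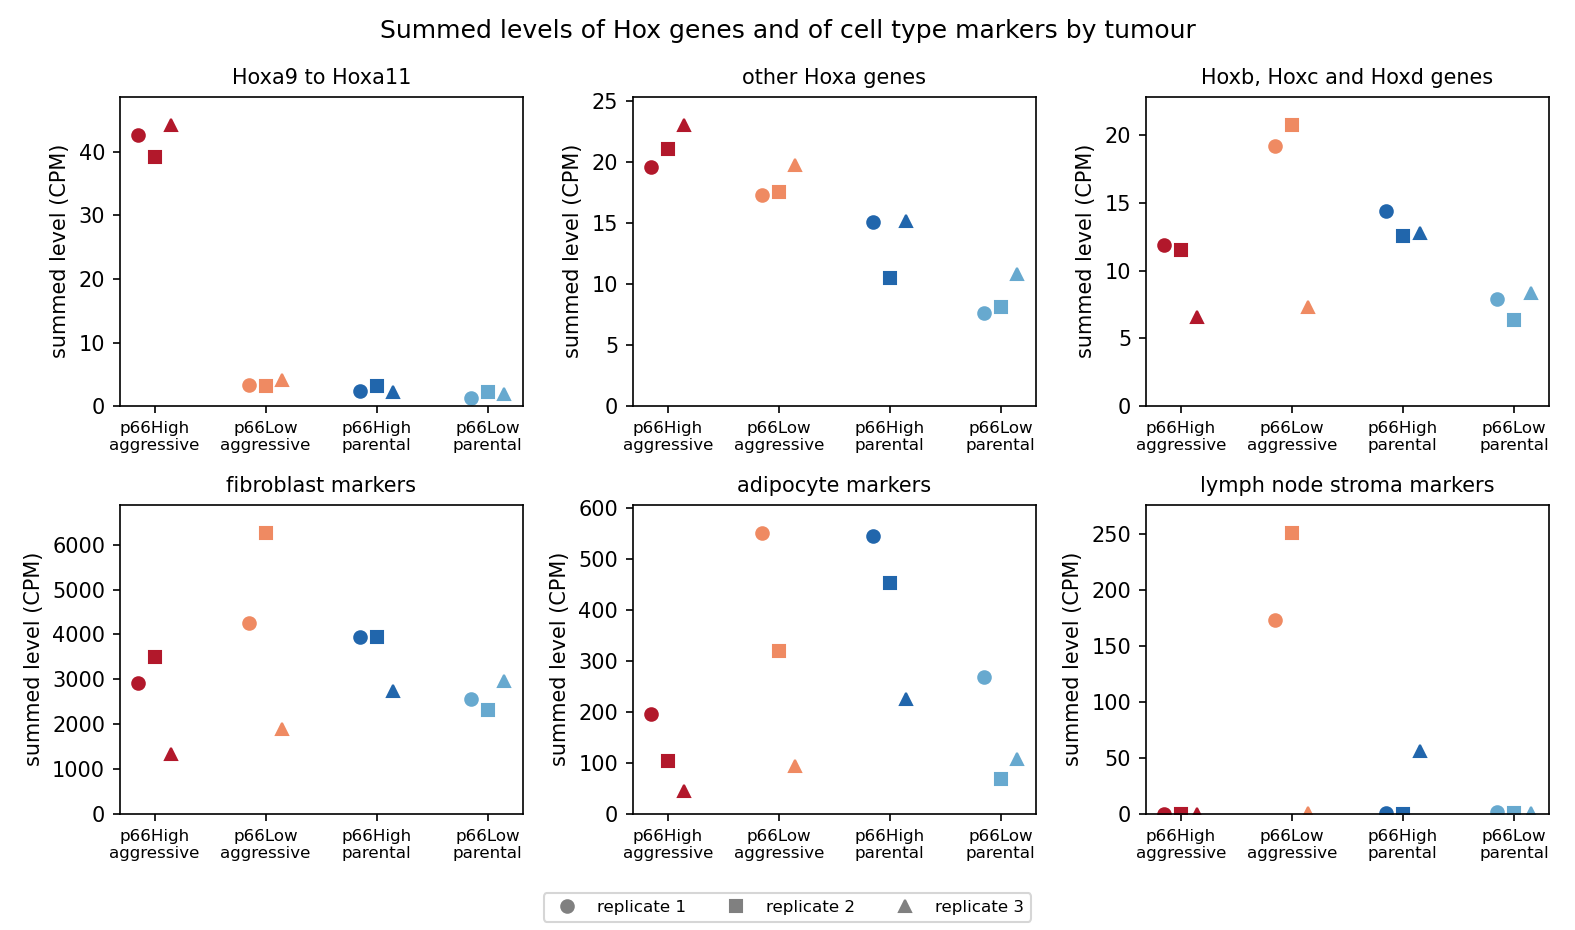
Summed level in CPM of Hoxa9 to Hoxa11, of the other Hoxa genes, of the Hoxb, Hoxc and Hoxd genes, and of the fibroblast, adipocyte and lymph node stroma markers, in each tumour of the 4 groups, with a shape for each replicate. Replicate 3 of p66High aggressive has the highest Hoxa9 to Hoxa11 sum, 44.3 CPM, and the lowest fibroblast and adipocyte marker sums, 1338 and 45.5 CPM.

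Hoxa9, Hoxa10 and Hoxa11 summed to 42.7, 39.2 and 44.3 CPM in p66High aggressive tumours, with the largest sum in replicate 3, where the fibroblast and adipocyte markers were lowest of all 12 tumours. Schwann cell markers had their highest sums in this group. The 5 summed to 267 to 302 CPM in p66High aggressive, 134 to 196 CPM in p66Low aggressive, 170 to 187 CPM in p66High parental and 203 to 250 CPM in p66Low parental tumours. Between p66High aggressive and p66Low aggressive tumours 3 of 5 passed, Sox10, Cdh19 and S100b, and between p66High aggressive and p66High parental tumours Sox10 alone did. None of the 5 was at 0 in a whole group, and the part of these cells in the Hoxa values was not tested.

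Noncoding genes inside the clusters were read from the same counts. Mir196b at chr6:52230081-52230165, inside the annotated span of Hoxa9 on the side of Hoxa10, had counts of 3, 3 and 7 in p66High aggressive tumours, 0, 1 and 2 in p66Low aggressive tumours, and 0 in all 6 parental tumours. These are counts over its hairpin and not of the mature miRNA, and it shares 1.5% of the exon bases of Hoxa9 on the same strand. Mir196a-1 in the Hoxb cluster had 3 counts in all tumours together and Mir196a-2 in the Hoxc cluster 0. The RefSeq mature sequences for GRCm38.p6 are printed 5′ to 3′ with the seed, bases 2 to 8, in capitals, to show that the gene at Hoxa9 and those in the Hoxb and Hoxc clusters carry the same seed.
mmu-miR-196b-5p, chr6:52230129-52230150, minus strand: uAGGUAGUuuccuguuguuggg
mmu-miR-196a-5p, chr11:96265187-96265208, plus strand: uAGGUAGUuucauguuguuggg

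Hoxa11os, the antisense gene over Hoxa11, had counts of 18, 3 and 14 in p66High aggressive tumours, 0, 1 and 0 in p66Low aggressive tumours, 0, 2 and 4 in p66High parental tumours and 0 in all 3 p66Low parental tumours. Hotair, an antisense RNA gene between Hoxc11 and Hoxc12, had a count of 2 in each p66High aggressive tumour, 0 in all p66Low tumours, and 2, 0 and 0 in p66High parental tumours. Mir196b, Hoxa11os and Hotair were too low to be tested. The highest count of Hotair, 2, was also reached in 1 p66High parental tumour. At the anterior end of the Hoxa cluster, noncoding genes were higher with selection in p66Low tumours. Hoxaas2 had a log2 difference of 2.44 (edgeR adjusted p = 0.0312) and Gm15050 of 2.59 (edgeR adjusted p = 0.00403). In p66High tumours their log2 differences were 0.88 and -0.01, and neither passed. The interaction passed for Gm15050 (-2.60, edgeR adjusted p = 0.0218).

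Genes beside the Hoxa cluster were read in the comparison in which Hoxa9 to Hoxa11 rose. Skap2, an adaptor gene 143 kb away on the low-coordinate side, had a log2 difference of -0.08 between p66High aggressive and p66High parental tumours (edgeR adjusted p = 0.724). Hibadh, an enzyme gene of valine breakdown 285 kb away on the other side, had -0.11 (edgeR adjusted p = 0.669). The other neighbours, Snx10, Cbx3 and Tax1bp1, had -0.20 to 0.18 (edgeR adjusted p of 0.361 to 0.675), and Jazf1 had -0.82 (adjusted p = 0.321) at a mean of 0.452 CPM. Among the 16 tested protein-coding genes within 2 Mb of the cluster the median was -0.09. Of these 1 passed as higher and 1 as lower, against 3.11% and 2.82% of all genes. The 3 nearest tested genes on each side of the Hoxc cluster, Calcoco1, Atp5g2, ATF7, Smug1, Cbx5 and Hnrnpa1, had log2 differences of 0.04 to 0.45 between p66High aggressive and p66High parental tumours, with edgeR adjusted p of 0.241 to 0.834. Those beside the Hoxd cluster, Lnp, Atp5g3, Atf2, Mtx2, Hnrnpa3 and Nfe2l2, had 0.01 to 0.17, with edgeR adjusted p of 0.325 to 0.973. Beside the Hoxb cluster, Atp5g1, Ube2z, Snf8, Snx11 and Cbx1 had -0.34 to 0.27, with edgeR adjusted p of 0.0785 to 0.785, and Skap1 had -2.34 (adjusted p = 0.195).

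Some neighbours passed in other comparisons. Skap1, a T cell adaptor gene 96 kb from the Hoxb cluster, had a log2 difference of -5.02 between p66High aggressive and p66Low aggressive tumours (edgeR adjusted p = 0.00687) and of 5.61 with selection in p66Low tumours (edgeR adjusted p = 0.00695). Snx10, 565 kb from the Hoxa cluster, had -1.15 between the aggressive groups (edgeR adjusted p = 0.00649), 2.04 with selection in p66Low tumours (edgeR adjusted p = 0.000619) and 1.09 between the parental groups (edgeR adjusted p = 0.0174). The 8 T cell markers summed to 3.36 to 11.3 CPM in p66High aggressive, 36.9 to 215 CPM in p66Low aggressive, 5.57 to 40.9 CPM in p66High parental and 4.08 to 5.39 CPM in p66Low parental tumours. None was at 0 in a whole group, and all 8 passed as lower between the aggressive groups with edgeR, 2 of them with limma-voom. Of all genes 12.1% passed as lower there with edgeR, which is also the background for the B cell and macrophage markers. The 8 B cell markers summed to 0.862 to 2.13 CPM in p66High aggressive, 3.74 to 178 CPM in p66Low aggressive, 1.41 to 35.9 CPM in p66High parental and 1.04 to 1.32 CPM in p66Low parental tumours. All 8 passed as lower between the aggressive groups with edgeR and 0 with limma-voom. The 7 macrophage markers found summed to 230 to 458 CPM, 566 to 989 CPM, 449 to 605 CPM and 367 to 397 CPM in the same order of groups, and 6 passed as lower between the aggressive groups with either tool. The part of these cells in the values of Skap1 and Snx10 was not tested. Skap2 passed at 0.60 with selection in p66Low tumours (edgeR adjusted p = 0.0042) and at 0.38 between the parental groups (edgeR adjusted p = 0.0486). Snx11 passed at -0.56 and Atp5g1 at 0.36 between p66High aggressive and p66Low aggressive tumours, and between the parental groups Hnrnpa1 passed at -0.80.

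Chromosome 15, which carries the Hoxc cluster, had a shift of its own. Its 518 protein-coding genes at 1 CPM or more had a median log2 difference of -0.42 between p66High parental and p66Low parental tumours, where the 7 tested Hoxc genes had a median of 0.52. The chromosome's median was 0.12 for selection in p66High tumours, -0.31 for selection in p66Low tumours and 0.45 for the interaction. The medians of chromosomes 2, 6 and 11 lay between -0.04 and 0.07 in every comparison.

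Hox proteins bind DNA together with the TALE homeodomain factors Pbx, Meis and Pknox. All 9 genes of this list were tested, and the differences given for this and the next lists are on the log2 scale. Between p66High aggressive and p66High parental tumours 1 rose and 2 fell, where 3.11% of all genes rose and 2.82% fell. Pbx3 had 14.1 ± 1.78 CPM in p66High aggressive and 7.73 ± 0.789 CPM in p66High parental tumours (SD, n = 3, log2 difference 0.86, edgeR adjusted p = 0.0119). Meis1, which acts with Hoxa9 in mouse leukaemia, had 12.3 ± 0.797 CPM in p66High aggressive and 17.5 ± 0.336 CPM in p66High parental tumours (SD, n = 3, log2 difference -0.50, edgeR adjusted p = 0.0369), so in this pair it was lower where Hoxa9 was high. In p66Low parental tumours, where Hoxa9 was low, Meis1 had 12.4 ± 0.601 CPM (SD, n = 3). Meis3 had 1.25 ± 0.23 CPM in p66High aggressive and 3.56 ± 0.832 CPM in p66High parental tumours (SD, n = 3, log2 difference -1.51, edgeR adjusted p = 0.0331).

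Between p66Low aggressive and p66Low parental tumours 2 of the 9 rose, where 9.60% of all genes did. Meis2 was among them (log2 difference 1.95, edgeR adjusted p = 0.00254). Between p66High parental and p66Low parental tumours 2 rose, where 3.98% of all genes did, Meis1 among the 2 (0.49, edgeR adjusted p = 0.0304). Meis2 fell by 1.58 in p66High aggressive against p66Low aggressive tumours (edgeR adjusted p = 0.00461). The Meis2 interaction was -2.05 (edgeR adjusted p = 0.0143). The list's median was -0.05 for selection in p66High and 0.36 in p66Low tumours, against 0.00 and -0.02 for all genes.

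Of the 22 Polycomb genes tested, none passed with edgeR between p66High aggressive and p66High parental tumours, the comparison in which Hoxa9 to Hoxa11 rose. Their median log2 difference was 0.13, 6 had an unadjusted p under 0.05 (22.7% of all genes did), and DESeq2 called 1 and limma-voom 0. Between p66High aggressive and p66Low aggressive tumours 5 of 22 rose and none fell, where 8.92% of all genes rose and 12.1% fell, so the share that passed was near the 21.0% of all genes. Among them Cbx6, a reader of the Polycomb mark, had 122 ± 7.27 CPM in p66High aggressive and 48.2 ± 10 CPM in p66Low aggressive tumours (SD, n = 3, log2 difference 1.34, edgeR adjusted p = 0.000257). Cbx8 and Rnf2, the catalytic subunit of Polycomb complex PRC1, had log2 differences of 0.72 and 0.55. Between p66Low aggressive and p66Low parental tumours 3 rose and 5 fell, where 16.6% of all genes passed, with Cbx6 at -1.39 (edgeR adjusted p = 0.000293), Jarid2 at -0.62 and Scmh1 at 1.19. Between p66High parental and p66Low parental tumours Jarid2, a cofactor of PRC2, fell by 0.95 (edgeR adjusted p = 0.000321), and Rnf2 (0.85) and Scmh1 (1.55) rose. The interaction passed for 3, Cbx6 (1.59) and Jarid2 (0.85) among them, where 12.4% of all genes passed.

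Of the 18 Trithorax and MLL genes, none passed with edgeR for selection in p66High or in p66Low tumours, where 3 each had an unadjusted p under 0.05 (22.7% and 30.9% of all genes did) and DESeq2 and limma-voom called 0. Rbbp5, a core subunit of MLL complexes, was higher in p66High aggressive than in p66Low aggressive tumours (0.59, edgeR adjusted p = 0.000528) and higher in p66High parental than in p66Low parental tumours (0.47, edgeR adjusted p = 0.00312). Kdm6a, which removes the Polycomb mark, rose by 0.63 and Kmt2d fell by 0.59 in the parental comparison. Of 17 retinoid genes, 1 rose and 2 fell with selection in p66High tumours, where 5.94% of all genes passed. Stra6, the retinol uptake receptor, had 8.13 ± 3.17 CPM in p66High aggressive and 2.19 ± 0.567 CPM in p66High parental tumours (SD, n = 3, log2 difference 1.87, edgeR adjusted p = 0.0241), and Rxra and Aldh1a1 fell by 0.62 and 1.63. With selection in p66Low tumours 1 of 17 fell, Crabp2, by 0.51, where 16.6% of all genes passed.

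Stra6 (1.27) and Rdh10 (0.32) rose between p66High aggressive and p66Low aggressive tumours, 2 of the 17, where 8.92% of all genes rose. Between p66High parental and p66Low parental tumours Rdh10 (0.64) and Rarb (1.72) rose and Crabp2 fell by 0.75, where 8.08% of all genes passed. The Stra6 interaction was 2.19 (edgeR adjusted p = 0.0327). Of 7 genes for geminin, CTCF and cohesin, the cohesin subunit Rad21 rose by 0.40 with selection in p66High tumours (edgeR adjusted p = 0.0142) and fell by 0.31 in p66Low tumours (edgeR adjusted p = 0.0227), with an interaction of 0.72. In p66High parental against p66Low parental tumours Rad21 was lower by 0.51 and Nipbl by 0.38. Both Rad21 and Nipbl are on chromosome 15, outside the Hoxc cluster. The median of that chromosome was -0.31 for selection in p66Low tumours, where Rad21 fell by 0.31, and -0.42 between the parental groups. Differences of the other listed genes, Cbx6 and Kmt2d among them, were not set against the shift of the chromosome that carries them. The Cdx and Evx genes, known as activators of posterior Hox genes and as cluster neighbours, had 4 counts at most in any tumour and were not tested.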

How the data were processed

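RNA from 12 bulk mammary tumours, 3 in each of 4 groups, was sequenced after depletion of ribosomal RNA. The authors deposited whole-number counts of reads per gene, not normalized, for 39017 genes. Per the submitters' processing notes, Trimmomatic 0.32, STAR 2.3.0e, featureCounts 1.4.4 and the mm10 build were used. The sources used here do not name the annotation, nor how strand and multimapping reads were handled. Of the gene IDs, 37607 (96.4%) matched the GENCODE vM21 annotation, which gave positions and exon lengths. Of counts from 1 to 9, 63.9 to 72% per library were even, and whether mates of a pair were counted singly is not given. Halving the counts, with rounding up, was therefore tried as an alternative, chosen after the data were seen.

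Counts were tested in R 4.3.3 with edgeR 4.0.16, by its quasi-likelihood test with TMM scaling and the default filter on low counts (filterByExpr, minimum count 10, minimum total 15), in 1 fit of the 4 groups, which left 8 residual degrees of freedom. Benjamini-Hochberg adjustment ran over all 19370 genes tested. CPM used the TMM-scaled library, and levels were compared between genes only per kb of exon. The SE of a log2 difference was its size divided by the root of F. Totals were 17.4 to 76.1 M counts per tumour, so the floor of 3 counts was worth 0.0394 to 0.156 CPM. Intervals and floors of this kind cover counting error only. Between replicates the chi-square per degree of freedom was 19.1 or more, so no pair of tumours agreed within sampling noise. Since no label states that each tumour had its own mouse, a p-value here measures only the spread between these tumours, which may be technical.

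Alternatives were DESeq2 1.42.0, limma-voom (limma 3.58.1), DESeq2's size factors in edgeR, scaling by total count, no filter, the 6 tumours compared alone, tumours with a shared title number summed, leaving out the 3 libraries with lymph node stroma markers over 20 CPM, and leaving out each tumour. The statistical code was tested on simulated data, and tables were made with Python 3.11.15 and pandas 2.3.3. The Hox genes, lists and tests were chosen with earlier results of these data known. Named were Hox genes that passed in a comparison and reached 1 CPM in a group mean, up to 4 members of each list with the smallest p, the 3 nearest tested coding genes on each side of a cluster, noncoding genes within a cluster and Shc1. The values of some genes that this rule would name are not reported here. Sequences are RefSeq's for GRCm38.p6.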

Additional observations from a re-analysis of the deposited data

Results flagged for a closer look

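For 4 Hox genes selection gave a different change in p66High than in p66Low tumours, by the test of the interaction itself in edgeR across all genes. For Hoxa11 and Hoxc13 edgeR could not estimate it, since groups were at 0. DESeq2 (7.96, adjusted p = 0.0184) and limma-voom (6.47, adjusted p = 0.00785) called it for Hoxc13, and neither did for Hoxa11. Hoxc13 was at 0 outside p66High aggressive tumours, so these sizes are not read. The interaction, the log2 difference of selection in p66High minus that in p66Low tumours, was 2.3 for Hoxa9 (adjusted p = 0.00519) and 3.57 for Hoxa10 (adjusted p = 0.000761). For Hoxd3 it was -2.71 (edgeR adjusted p = 0.0484), and it missed the threshold under 14 of 20 alternatives, limma-voom among them. For Hoxb9 it was -7.56 (edgeR adjusted p = 0.0327), a fitted value that depends on the prior count because all 3 p66High aggressive tumours had a count of 0. The Hoxb9 interaction missed the threshold with limma-voom (-4.34, adjusted p = 0.0634), with shared title numbers summed (adjusted p = 0.0567), without the 3 libraries with lymph node markers (adjusted p = 0.261), and without any 1 of 9 tumours (adjusted p of 0.0501 to 0.0735).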

How the results depend on the processing

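The 21 differences that passed for Hox genes kept their direction under all 330 alternative values, and 258 of these still passed while 72 missed the threshold. Hoxa9 and Hoxa10 passed under all 15 alternatives in both p66High aggressive comparisons, and Hoxa10 under all 20 for the interaction. Hoxb9 gave no value with halved counts or with only the 6 tumours compared, where the filter removed it. The Hox count between p66High parental and p66Low parental tumours, 1, was 2 with DESeq2, 0 with no filter, 0 with shared title numbers summed, 0 without the lymph node libraries, and 0 to 2 without 1 tumour. Between p66High aggressive and p66Low aggressive tumours the count of 6 became 3 without the lymph node libraries and 5 to 8 without 1 tumour. For selection in p66Low tumours the count of 4 was 3 to 8 without 1 tumour, with 8 without replicate 3 of p66Low aggressive. For selection in p66High tumours the count of 6 was 2 with shared title numbers summed and 3 to 4 without 1 tumour. The interaction count of 4 was 2 with shared title numbers summed, 1 without the lymph node libraries and 2 to 6 without 1 tumour. The cause was not tested.

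Over all genes the count passing was 1565 (838 to 2486) between p66High parental and p66Low parental tumours, 4077 (1075 to 4879) between p66High aggressive and p66Low aggressive tumours, 3221 (705 to 4232) for selection in p66Low tumours, 1150 (305 to 2192) for selection in p66High tumours and 2395 (335 to 3504) for the interaction, with the range over alternatives other than leaving out 1 tumour. Without 1 tumour these counts were 871 to 1927, 2438 to 4502, 1545 to 3505, 457 to 756 and 1179 to 3278 in that order. Scaling by total count alone made 73.6% of the calls for selection in p66Low tumours higher, against 57.7%, and 23.3% of the interaction calls, against 35.4%. That scaling moved the median of all genes by 0.11 on the log2 scale for selection in p66Low tumours and by -0.11 for the interaction, and by -0.07 to 0.04 in the other comparisons. No paired analysis was possible because replicate numbers follow accession order and titles share a number only within a group.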
